A study of Mus musculus with 6 samples.

Results

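Immunoglobulin variable gene segments are the building blocks from which B cells assemble the antigen-binding part of their antibodies. The segments described here were chosen by their deposited read counts: every Ensembl identifier of the mouse whose symbol starts with Ighv (heavy chain), Igkv (kappa light chain) or Iglv (lambda light chain) and that held 30 or more counts summed over all 6 libraries. This gave 176 segments of 35275 identifiers in the table, namely 81 of 108 Ighv, 92 of 103 Igkv and 3 of 3 Iglv segments. Of the 38 segments under that minimum, 14 held 1 to 29 counts and 24 held 0. Just inside the minimum stood Igkv17-134 and Igkv4-78 with 30 counts each and Ighv2-6-8 with 33. Just outside stood Igkv3-3 with 27, Igkv4-62 with 26 and Igkv18-36 with 21. In the GENCODE M21 annotation 174 of the 176 were classed as variable genes and 2, Igkv4-83 and Igkv17-134, were pseudogenes.

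A developing B cell joins a single variable segment to a joining segment by recombination, with a diversity segment between them in the heavy chain, and splices the product to a constant region. Each B cell and its descendants thus transcribe mostly a single heavy and a single light chain variable segment, and a mixed B cell population uses many of them. In mice most B cells carry kappa light chains and fewer carry lambda. The liver holds B cells among the leukocytes of its blood and sinusoids.

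The libraries came from CD31-positive liver cells of p16-Cre/Rosa26-mTmG mice that were 1 year old. In these mice the p16 promoter drives a Cre recombinase, and a membrane reporter turns from red to green in cells with a history of Cre, so GFP marks past or present use of that promoter rather than a cell type. The groups were 3 GFP-positive and 3 GFP-negative libraries of sorted cells, with the alleles and the age shared by both. CD31 is also carried by platelets and many leukocytes, and the labels name no animal, batch or pairing and do not say whether animals were pooled. They describe culture of the separated cells in endothelial medium, and whether the RNA came from cultured cells is not stated. Library totals were 16766556 to 17849620 counts in GFP-positive and 18067411 to 22627555 counts in GFP-negative libraries. A p-value here sets the difference between groups against how far libraries of a group lay apart, estimated with help from all genes. With no separate animals named, part of that distance may be technical.

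The germline sequences of the segments that led the libraries are shown first. They show how alike segments can be over their final coding bases. Each line gives the final 60 coding bases of the germline segment, 5′ to 3′ on the coding strand, from the GENCODE M21 transcripts of build GRCm38. The codon in capitals is that of the conserved cysteine after which CDR3, the most variable antigen-binding loop, begins. The bases to its right are followed in a rearranged gene by junctional sequence that no germline reference holds. The first 4 are the heavy chain segments that led a GFP-positive library or, for Ighv11-2, came next in it, and the fifth, Ighv1-9, led every GFP-negative library.
Ighv1-55: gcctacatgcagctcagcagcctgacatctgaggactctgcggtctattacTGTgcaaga
Ighv7-3: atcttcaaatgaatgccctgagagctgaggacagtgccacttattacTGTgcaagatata
Ighv1-19: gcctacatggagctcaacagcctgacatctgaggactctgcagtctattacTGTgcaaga
Ighv11-2: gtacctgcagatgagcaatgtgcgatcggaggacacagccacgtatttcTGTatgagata
Ighv1-9: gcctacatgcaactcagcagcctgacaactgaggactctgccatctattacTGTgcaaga
The next 4 are kappa segments, of which Igkv14-126, Igkv12-46 and Igkv6-23 led GFP-positive libraries 1, 2 and 3, and Igkv6-15 led GFP-negative libraries 1 and 2.
Igkv14-126: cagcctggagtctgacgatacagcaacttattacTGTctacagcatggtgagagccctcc
Igkv12-46: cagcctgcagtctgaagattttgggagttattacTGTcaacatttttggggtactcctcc
Igkv6-23: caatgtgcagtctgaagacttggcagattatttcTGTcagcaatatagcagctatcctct
Igkv6-15: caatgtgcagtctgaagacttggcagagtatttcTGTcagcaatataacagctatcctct
The last 2 are lambda segments, a pair of close relatives that behaved differently in the counts.
Iglv1: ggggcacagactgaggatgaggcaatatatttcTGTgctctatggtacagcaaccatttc
Iglv2: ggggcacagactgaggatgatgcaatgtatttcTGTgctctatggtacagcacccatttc

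In GRCm38 the heavy chain windows lie on the minus strand, at chr12:115208095-115208154 for Ighv1-55, chr12:114153180-114153239 for Ighv7-3, chr12:114708648-114708707 for Ighv1-19, chr12:114048241-114048300 for Ighv11-2 and chr12:114583569-114583628 for Ighv1-9. The Igkv14-126 window lies on the plus strand at chr6:67896583-67896642. On the minus strand lie those of Igkv12-46 at chr6:69764523-69764582, Igkv6-23 at chr6:70260409-70260468 and Igkv6-15 at chr6:70406469-70406528. The lambda windows lie on the minus strand at chr16:19085017-19085076 for Iglv1 and chr16:19260401-19260460 for Iglv2. All lie in the coding part of the variable exon. Over these 60 bases Iglv1 and Iglv2 differed at 3 positions, Igkv6-23 and Igkv6-15 at 2, and Ighv1-55 and Ighv1-19 at 3. Over their whole coding sequences the edit distances (bases changed, added or lost) of these pairs were 36, 40 and 79. Differences in annotated coding length count in these distances, as with the 391 bases of Iglv1 and the 366 of Iglv2. Whether the windows are more alike than the rest therefore cannot be read from them.

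Identity over the whole coding sequence also counted differences in length. Its median between a member and the nearest segment in its locus was 91.7%. Of the 176, 42 had a relative at 95% identity or above. A median of 77.8% of a member's stretches of 50 bases occurred in no other variable segment, and for 22 members this share was under 50%. For 34 members, Igkv14-126 among them, the share was 100%, and Ighv1-9 had 99.3%. Ighv1-26 had 51.0% and Igkv1-117 50.1%, so their counts are uncertain, as the counting could divide or drop reads shared with their relatives. Coding lengths were 303 to 501 bases. Counts in the text are not divided by length, but the same segment led each locus in every library when they were.

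Variable segments took 0.00572%, 0.00620% and 0.00444% of all counts in GFP-positive libraries 1, 2 and 3, against 0.463%, 0.408% and 0.391% in GFP-negative libraries 1, 2 and 3. The GFP-positive and GFP-negative ranges were far apart, with a ratio of 63.0 between the lowest GFP-negative and the highest GFP-positive library. In counts this was 959, 1073 and 793 in GFP-positive and 89444, 73735 and 88417 in GFP-negative libraries. With sums this low in the GFP-positive group, few counts decide every share given for it. Sums over the members carry no p-value, because the members were chosen with their counts known.

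The heavy chain sum was 95, 201 and 102 counts in GFP-positive libraries and 16607, 13254 and 17603 counts in GFP-negative libraries. As CPM (a count scaled to a common library size, after TMM) it averaged 7.73 ± 3.42 in GFP-positive and 783 ± 65.6 in GFP-negative libraries (SD, n = 3 each). The kappa sum was 771, 351 and 657 counts in GFP-positive libraries and 68166, 55480 and 66597 in GFP-negative libraries, or 34.8 ± 13.7 CPM against 3152 ± 323 CPM (SD, n = 3 each). Both loci thus stood about equally far apart between the groups, by a log2 ratio of mean shares of −6.69 for the heavy chain and −6.53 for kappa. The lambda sum was 93, 521 and 34 counts in GFP-positive and 4671, 5001 and 4217 counts in GFP-negative libraries. Its log2 ratio was −4.23, and −5.98 without GFP-positive library 2, which held most of the lambda counts of its group. Bulk counts cannot tell fewer B cells from less antibody RNA per B cell.

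**Figure D1:**
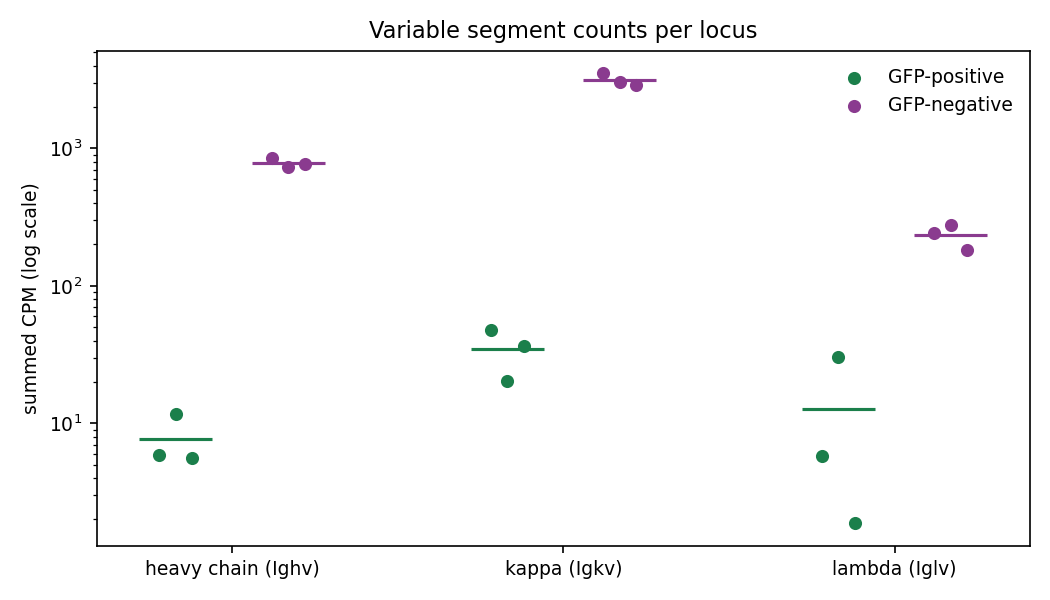
Summed CPM of the variable segments of each locus (y axis, log scale) in the 3 GFP-positive and the 3 GFP-negative libraries, 1 point per library with a line at the group mean. The groups do not overlap at any locus, and the GFP-positive lambda sums spread the most, from 1.88 to 30.3 CPM.

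Constant regions follow the variable segment in the same transcript, so their counts were set against each other. The ratio can also depend on how reads shared between segments were counted. By itself it does not show whether a locus kept its make-up. Per count of Igkc, the kappa constant region, GFP-positive libraries 1 to 3 held 0.591, 0.429 and 0.603 kappa variable counts and GFP-negative libraries 0.576, 0.556 and 0.554. The kappa ratios of the groups overlapped. For the heavy chain the ratio to all constant regions measured was 0.0843, 0.272 and 0.438 in GFP-positive libraries and 0.158, 0.156 and 0.161 in GFP-negative libraries. The GFP-negative libraries agreed closely, whereas the GFP-positive ones lay on both sides of them. For lambda, the ratio to Iglc2, the single lambda constant region measured here, was 0.816, 4.13 and 0.138 in GFP-positive and 0.266, 0.305 and 0.307 in GFP-negative libraries, and the GFP-positive mean was 1.70, or 0.477 without library 2. Iglv1 is known to join mainly to the constant regions Iglc1 and Iglc3, and Iglv2 and Iglv3 to Iglc2, so the 4.13 of GFP-positive library 2 stands beside its 521 counts of Iglv1 and 0 counts of the others. Iglc1, Iglc3 and the delta constant region Ighd were not analysed here.

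Members were chosen by counts that came nearly all from GFP-negative libraries, so their detection there follows largely from that choice. The GFP-negative libraries used nearly every member. They detected 79, 78 and 78 heavy chain and 90, 91 and 91 kappa segments, and 167 of the 176 members had a count in each of them. No segment dominated: the leading heavy chain segment took 6.75%, 6.81% and 5.72% of the heavy chain counts, and the leading kappa segment 6.55%, 5.85% and 5.16% of the kappa counts. Chosen after their values were seen are the extremes of spread. Among the 129 members with 300 or more GFP-negative counts, the coefficient of variation between GFP-negative libraries had a median of 29.3%, from 2.72% for Igkv16-104 to 144% for Ighv5-6. Ighv5-6 held 315, 13 and 31 counts there, which shows that single segments could jump in this group as well.

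The GFP-positive libraries used fewer segments, and a different heavy chain and kappa segment led each of them. They detected 15, 9 and 11 heavy chain and 28, 30 and 22 kappa segments. At an equal depth of 95 heavy chain counts, the exact expected number of segments was 15.0, 7.14 and 10.7 in GFP-positive libraries and 41.9, 42.7 and 42.3 in GFP-negative ones. At 351 kappa counts it was 20.5, 30.0 and 18.3 against 67.5, 67.6 and 66.6. At equal depth the GFP-positive libraries thus still held fewer segments. The libraries were amplified by PCR and no molecular identifiers are described, so reads are not independent molecules, and the part of amplification in this was not tested. Depth-corrected evenness gave the same picture. The effective number of segments (inverse Simpson index, which is the count of equally used segments that would give the same chance that a pair of reads match) was 3.60 ± 0.0833 in GFP-positive and 37.6 ± 1.03 in GFP-negative libraries for the heavy chain (SD, n = 3 each). For kappa it was 5.46 ± 0.871 against 40.3 ± 2.30 (SD, n = 3 each).

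**Figure D2:**
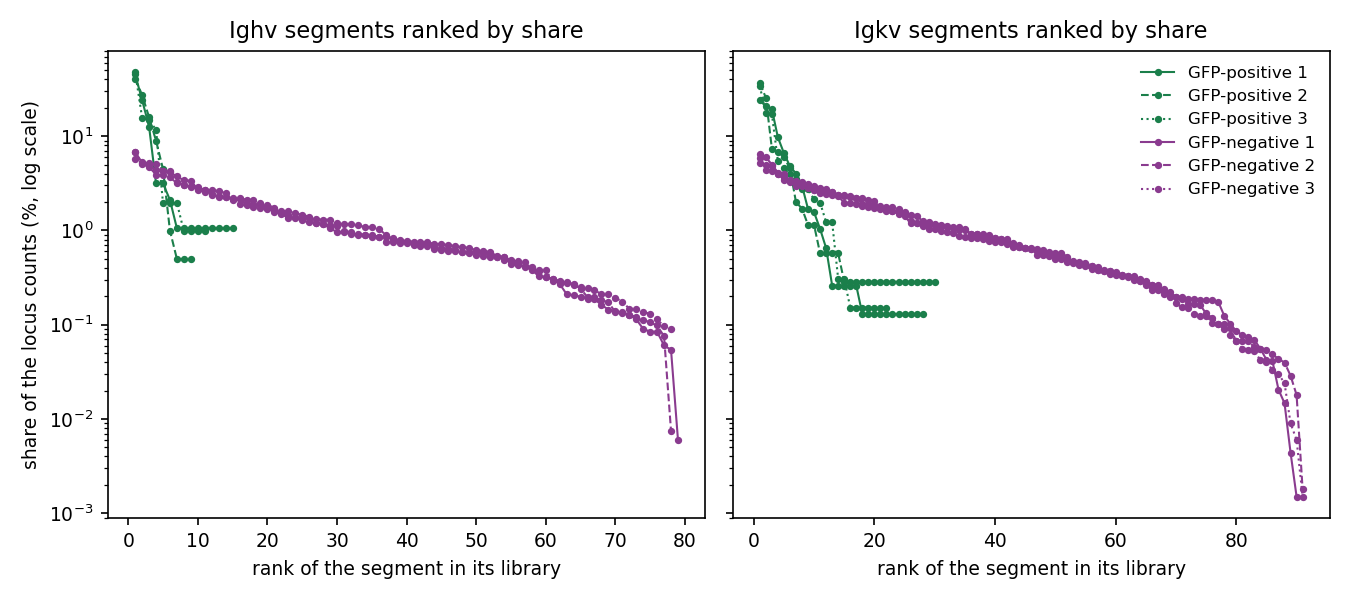
Share of the locus counts (y axis, %, log scale) of each detected segment by its rank in its own library (x axis), for heavy chain and kappa segments. The 3 GFP-positive lines start between 24.1% and 48.0% and end within 30 segments, and the 3 GFP-negative lines start below 7% and run on to 78 or more segments.

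In GFP-positive library 1 the leading heavy chain segment was Ighv1-55. It held 43, 0 and 0 counts in the GFP-positive libraries and 378, 329 and 575 in the GFP-negative libraries. Its share of the heavy chain counts of GFP-positive library 1 was 45.3% (95% Wilson interval 35.6% to 55.3%, counting error only). The next was Ighv11-2, with 23, 0 and 0 counts in GFP-positive libraries and 15, 16 and 16 in GFP-negative libraries. Its share was thus 24.2% in GFP-positive library 1 and 0.0903%, 0.121% and 0.0909% in GFP-negative libraries 1 to 3. Ighv11-2 was singled out after its values were seen. It is a known heavy chain of mouse B-1 cells that bind phosphatidylcholine, where it is typically paired with Igkv14-126.

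Igkv14-126 led the kappa counts of that same library. It held 186, 24 and 0 counts in GFP-positive and 816, 794 and 281 counts in GFP-negative libraries. That was 24.1% (interval 21.2% to 27.3%) of the kappa counts of GFP-positive library 1, against 1.20%, 1.43% and 0.422% in the GFP-negative libraries. Which heavy chain was joined to which light chain in a cell is not seen in bulk counts. Igkv12-44 followed with 160, 0 and 23 counts in GFP-positive and 1862, 2451 and 2073 in GFP-negative libraries, and Igkv4-72, named after its values were seen, held 149, 0 and 0 against 1022, 620 and 805.

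GFP-positive library 2 was led by Ighv7-3, with 0, 82 and 0 counts over the GFP-positive libraries, against 45, 237 and 211 in the GFP-negative libraries. This was 40.8% (interval 34.2% to 47.7%) of its heavy chain counts. Ighv5-17 held 1, 55 and 1 counts in GFP-positive and 874, 519 and 893 in GFP-negative libraries, where it was among the leading segments too. Its leading kappa segment was Igkv12-46, at 2, 129 and 26 counts in GFP-positive and 2801, 1636 and 3332 in GFP-negative libraries, or 36.8% (interval 31.9% to 41.9%) of the kappa counts of GFP-positive library 2.

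GFP-positive library 3 was led by Ighv1-19, with 0, 0 and 49 counts in GFP-positive and 89, 358 and 450 in GFP-negative libraries. It took 48.0% (interval 38.6% to 57.6%) of the heavy chain counts there. Igkv6-23 led its kappa counts, with 13, 2 and 224 in GFP-positive and 2339, 2179 and 2167 in GFP-negative libraries, or 34.1% (interval 30.6% to 37.8%). Its relative Igkv6-15, which shares all but 2 of the final 60 bases, held 0, 16 and 30 counts in GFP-positive and 4466, 3248 and 3190 in GFP-negative libraries. So Igkv6-23 held more counts than Igkv6-15 in GFP-positive libraries 1 and 3. It held fewer in GFP-positive library 2 and in every GFP-negative library. This library was also alone in holding the switched constant region Ighg1, with 64 counts, while GFP-positive libraries 1 and 2 and all GFP-negative libraries held 0.

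**Figure D3:**
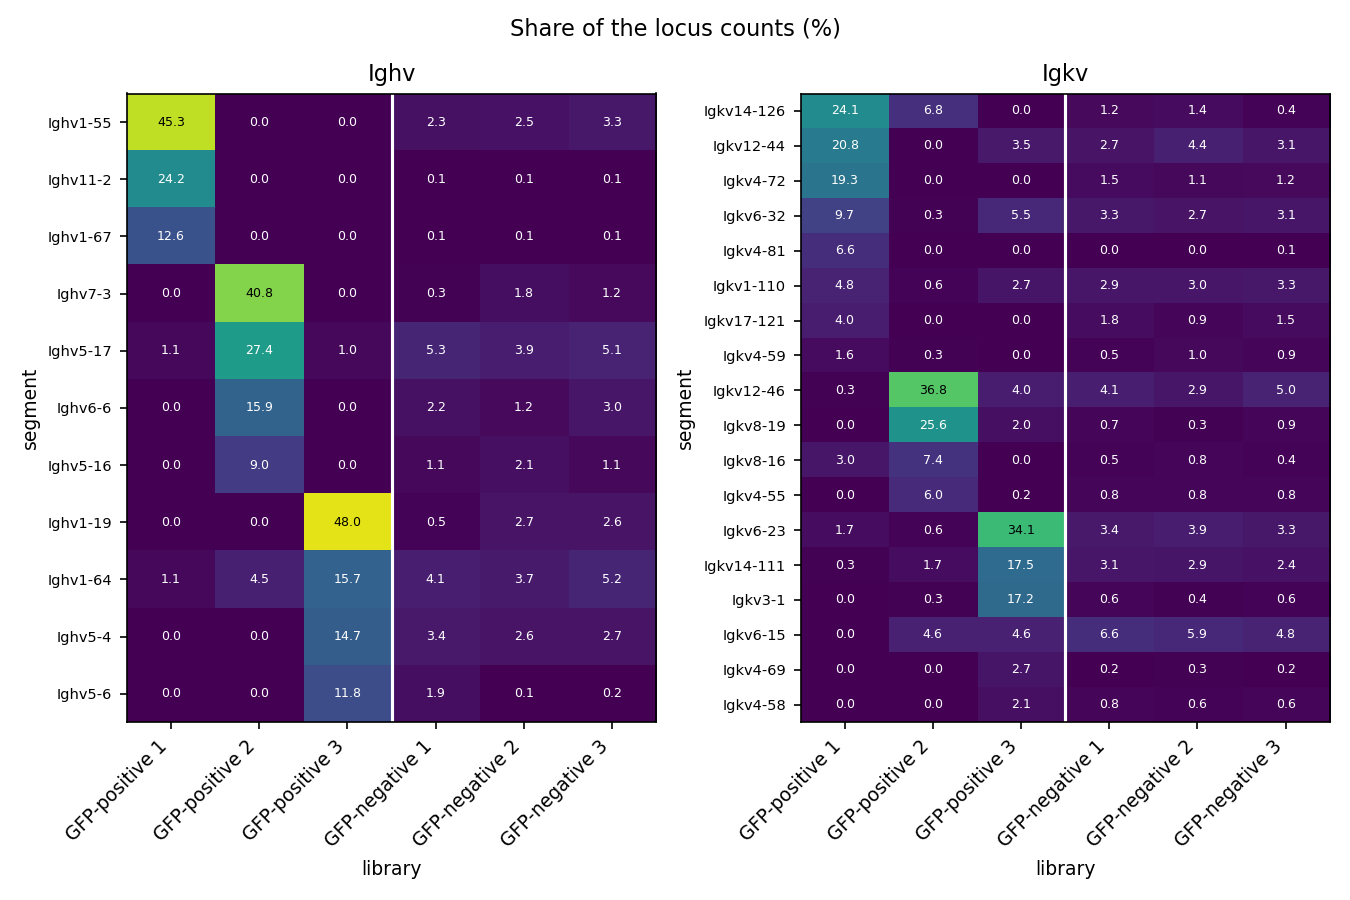
Share of the locus counts (%, colour and number) in each library (x axis) for the 11 heavy chain and 18 kappa segments (y axis) that held 10 or more counts in at least 1 GFP-positive library. The brightest heavy chain and kappa cells fall in different rows in the 3 GFP-positive libraries, and no GFP-negative cell exceeds 6.55%.

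Of the 31 members with 10 or more counts over the GFP-positive group, 20 had at least 90% of the group's CPM in a single GFP-positive library, and the median of this leading share was 96.5%. In the GFP-negative libraries the same 31 had a median leading share of 42.0%, and none reached 90%. Over all 4120 other tested genes with GFP-positive sums in the same range (12 to 645), the median leading share was 61.0% in GFP-positive libraries. It was 51.1% in GFP-negative libraries. Of those genes, 20.3% reached 90% in the GFP-positive group and 8.34% in the GFP-negative group. Unevenness between GFP-positive libraries was thus not limited to the segments. The leading share depends on how many counts a gene holds. Counts were not matched within that range or between the groups, so these shares do not rank segments against other genes.

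The likeness of segment use between libraries was measured by the Morisita index. It is near 1 for a pair of libraries that sample the same use and near 0 where few segments are shared. Its correction for depth takes reads as independent draws, which amplified reads are not. The part of amplification in the low GFP-positive values was not tested. Pairs of GFP-positive libraries gave 0.0074 to 0.0349 for the heavy chain and 0.110 to 0.138 for kappa. Pairs across the groups gave 0.0908 to 0.184 and 0.160 to 0.262. Pairs of GFP-negative libraries gave 0.927 to 0.944 and 0.952 to 0.962. The GFP-negative libraries were therefore nearly alike, and every GFP-positive library was less like another GFP-positive library than like any GFP-negative library. No heavy chain segment held 10 or more counts in more than 1 GFP-positive library, whereas 74 to 76 did so in each GFP-negative pair. Kappa segments were shared more: 9 of the 18 with 10 or more counts in a GFP-positive library held as many in another one, or 2, 4 and 3 in the 3 pairs, against 85 to 87 in each GFP-negative pair.

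**Figure D4:**
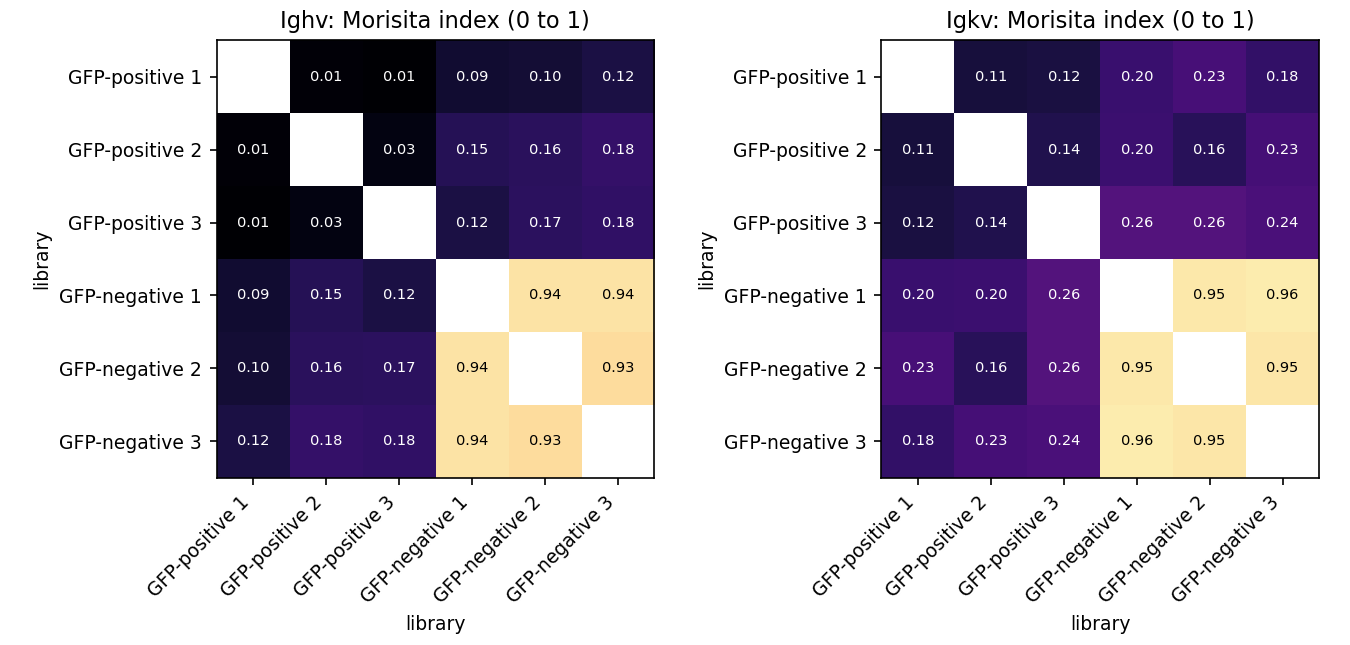
Morisita index of segment use (colour and number, 0 to 1) for each pair of libraries, for heavy chain and kappa segments. The GFP-negative block stands between 0.93 and 0.96, and the GFP-positive block between 0.01 and 0.14.

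Lambda light chains have 3 variable segments in the mouse. Iglv1 held 93, 521 and 31 counts in GFP-positive and 2730, 3075 and 2539 counts in GFP-negative libraries. Iglv3 held 0, 0 and 1 counts against 1123, 1371 and 1518, and Iglv2 held 0, 0 and 2 counts against 818, 555 and 160. GFP-positive libraries thus had lambda counts almost wholly from Iglv1, while Iglv1 took 58.4%, 61.5% and 60.2% in the GFP-negative libraries. Lambda made up 10.8% (interval 8.87% to 13.0%), 59.7% (56.5% to 63.0%) and 4.92% (3.54% to 6.80%) of the light chain variable counts of GFP-positive libraries 1 to 3. In GFP-negative libraries 1 to 3 it made up 6.41% (6.24% to 6.59%), 8.27% (8.05% to 8.49%) and 5.96% (5.78% to 6.13%). Library 3 of the GFP-positive group lay below all GFP-negative libraries, with an interval that reached into their range, library 1 lay above them and library 2 far above.

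By family, the group of related segments given by the first number of the symbol, the GFP-negative libraries were alike. Ighv1, the largest mouse family with 39 of the 81 heavy chain members, took 66.3%, 6.97% and 68.6% of the heavy chain counts in GFP-positive libraries and 57.0%, 57.3% and 53.1% in GFP-negative libraries. GFP-positive library 2 instead held 36.3% from Ighv5, 40.8% from Ighv7 and 15.9% from Ighv6. Of the kappa families, Igkv4, with 26 of the 92 members, took 29.2%, 7.41% and 5.48% in GFP-positive and 10.4%, 10.9% and 11.9% in GFP-negative libraries. Igkv6 took 11.9%, 5.41% and 44.1% against 16.8%, 17.4% and 15.7%. Igkv1 was lower in every GFP-positive library, with 5.58%, 0.855% and 2.74% against 12.7%, 11.8% and 12.2%, and so was Igkv10, with 0.130%, 1.99% and 0% against 7.21%, 5.95% and 6.30%. This was not particular to them, as Igkv9, Igkv5, Igkv2, Ighv9 and Ighv3, among others, were lower in every one too. Igkv14 was higher in every one, with 24.4%, 8.83% and 17.7% against 6.17%, 6.16% and 3.81%. Different segments held most of its counts: Igkv14-126 with 186 and 24 in GFP-positive libraries 1 and 2, and Igkv14-111 with 115 in library 3. Family shares are fixed to a sum, so a gain in a leading family lowers the others.

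**Figure D5:**
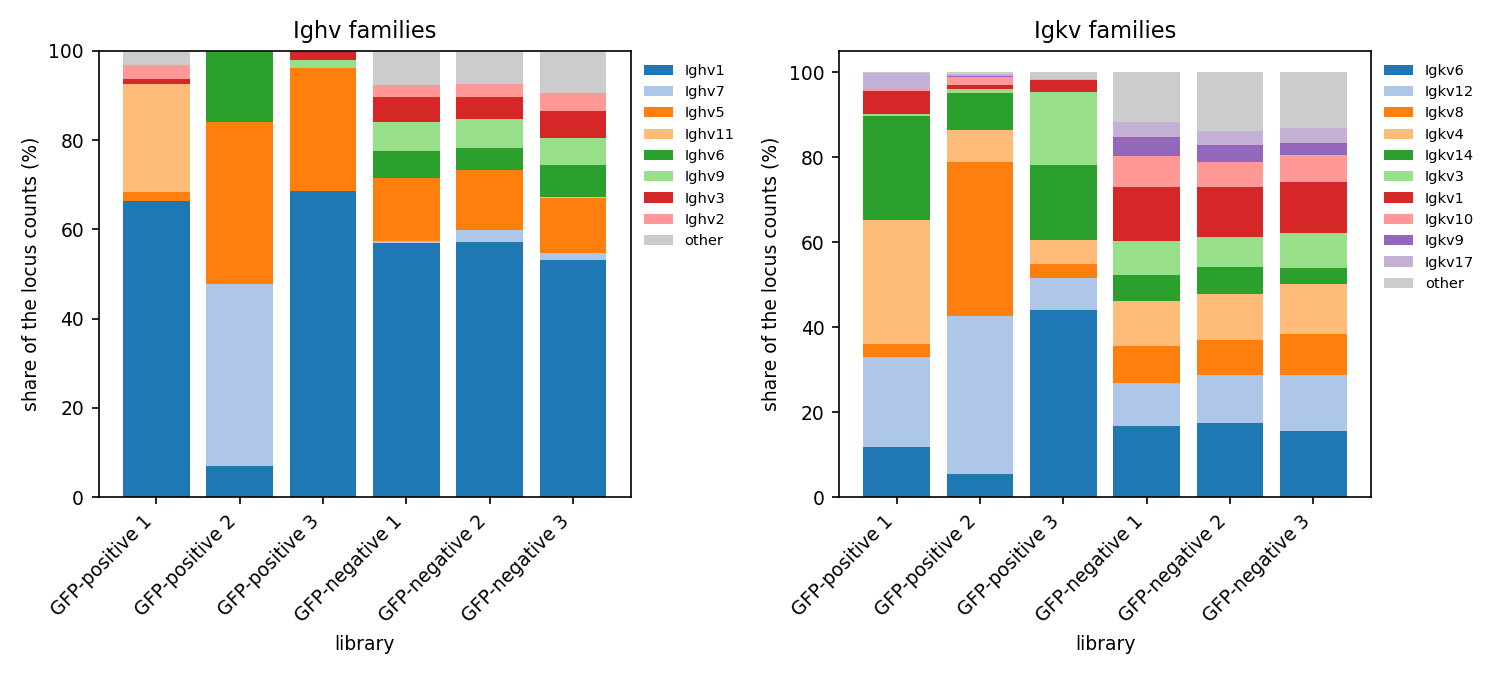
Share of the locus counts (y axis, %) by segment family in each library (x axis), stacked, with smaller families joined as other. The 3 GFP-negative bars look alike, with Ighv1 at 53.1% to 57.3%, and the GFP-positive bars differ from each other, with Ighv1 at 6.97% to 68.6%.

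Along the chromosome, members were ordered by their distance from the constant region in GRCm38 and divided into 3 parts of about equal number. The part nearest the heavy chain constant regions held 29.5%, 77.1% and 29.4% of the heavy chain counts in GFP-positive and 26.1%, 27.7% and 27.9% in GFP-negative libraries. For kappa the nearest part held 15.3%, 43.0% and 64.7% against 36.2%, 36.3% and 35.8%. All 81 heavy chain members lie on the strand of their constant region. Of the kappa members 58 lie on the opposite strand, which recombination reaches by inversion, and these held 64.9%, 88.9% and 61.6% of the kappa counts in GFP-positive and 55.1%, 57.3% and 57.8% in GFP-negative libraries.

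Single segments were tested in edgeR's quasi-likelihood fit over all 12122 genes that passed a filter on low counts, with Benjamini-Hochberg adjustment over all of them and a threshold of 0.05. The filter kept 160 of the 176 members, and 16 fell below it. Of the 160, 134 were lower in GFP-positive libraries, 0 were higher and 26 did not pass, against 10.1% of all tested genes called lower and 7.65% called higher. In 157 of the 160 every GFP-positive library lay below every GFP-negative one, as it did in 23.8% of all tested genes; the exceptions were Ighv7-3, Ighv11-2 and Igkv4-81, named after their values were seen. Since nearly all members passed the minimum and the filter through their GFP-negative counts, these numbers describe the segments and support nothing beyond them. Without GFP-negative library 1, 2 or 3, 45 of 163, 49 of 163 or 54 of 162 tested members were called lower. Without GFP-positive library 1, 2 or 3, 90, 91 or 97 of 169 were. Calls fell over the whole table too, from 1230 genes lower with all libraries. They fell to 496, 530 or 525 without a GFP-negative library and to 994, 922 or 1067 without a GFP-positive one, in the same order. The median log2 fold change (GFP-positive over GFP-negative) of the 160 was −9.24, or −7.06 with segments at 0 counts set at their bound, against −0.09 over all genes tested.

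Of the 134 called segments, 123 had 3 or fewer counts over the whole GFP-positive group, and 80 had 0. Another 7 held 10 or more counts in a GFP-positive library, among them Igkv12-46, the kappa leader of library 2. Ighv1-9, the heavy chain segment with the most counts, held 0, 1 and 0 counts in GFP-positive and 1121, 903 and 1007 in GFP-negative libraries. Its log2 fold change was −10.91 ± 0.93 (SE; edgeR adjusted p = 0.000542), and its GFP-negative to GFP-positive ratio was 2595 (95% counting interval 466 to 102483). Ighv1-26 held 1, 1 and 1 against 707, 672 and 755 counts, and had the smallest adjusted p of the heavy chain segments, 0.000301, with a log2 fold change of −9.09 ± 0.70 (SE, edgeR). Ighv9-3 held 0, 0 and 2 counts against 819, 625 and 750, and Ighv3-6 held 1, 0 and 2 against 724, 509 and 911. Both fell, with log2 fold changes of −9.66 and −9.08 (edgeR adjusted p = 0.00276 and 0.00184).

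Among kappa segments, Igkv1-117 held 0 counts in every GFP-positive library and 3414, 2202 and 2476 counts in GFP-negative libraries. Set against 3 counts over the GFP-positive group, or 0.0583 CPM, it was at least 2315-fold lower, the highest bound of the 95 members at 0 counts, whose bounds had a median of 101. Igkv1-135 held 1, 1 and 0 counts in GFP-positive and 2339, 1813 and 2620 in GFP-negative libraries, with the smallest adjusted p of any member (log2 fold change −11.25 ± 0.59, SE; edgeR adjusted p = 7e-05). Igkv9-120 held 0, 0 and 1 against 1940, 1439 and 1532 counts, and Igkv17-127 held 0, 1 and 1 against 1244, 1309 and 1400 (edgeR adjusted p = 0.00018 for both). Igkv10-96 held 1, 7 and 0 against 4079, 2380 and 3438 (log2 fold change −9.98 ± 0.86, SE; edgeR adjusted p = 0.000559). Igkv6-15, given above and the kappa segment with the most counts, was lower too (log2 fold change −7.70 ± 0.99, SE; edgeR adjusted p = 0.00333). Iglv3 and Iglv2 were lower too, at −11.32 ± 0.81 and −9.21 ± 1.58 (SE; edgeR adjusted p = 0.000255 and 0.0101), and Iglv2 lost its call without GFP-negative library 1 (0.0592).

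Of the 26 members that did not pass, 23 held 10 or more counts in at least 1 GFP-positive library. Several named segments passed once the GFP-positive library that held most of their counts was left out. DESeq2's Wald test called 5 of the named ones with all libraries kept, Ighv1-55 (adjusted p = 0.0453), Ighv5-17 (0.00112), Igkv6-23 (0.000685), Igkv12-44 (0.00125) and Iglv1 (0.000504). The fitted log2 value of Ighv1-55 was −4.55 ± 2.04 (SE; adjusted p in edgeR 0.189), and −11.64 (0.00865) without GFP-positive library 1. Ighv1-19 stood at −4.00 ± 2.16 (0.273), and at −11.11 (0.0274) without GFP-positive library 3. Ighv7-3 stood at −2.36 ± 2.25 (0.557) and at −10.28 (0.0534) without GFP-positive library 2. Ighv5-17 stood at −5.07 ± 1.57 (0.0697) and at −9.17 (0.00158) without that same library.

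The kappa leaders differed in this. Igkv6-23 stood at −4.65 ± 1.40 (SE; edgeR adjusted p = 0.0641), and at −7.92 (0.00275) without GFP-positive library 3. Igkv12-44 stood at −4.85 ± 1.45 (0.0631), and passed without GFP-positive library 1 (0.0210) or 2 (0.0377). Igkv14-126 stood at −2.93 ± 1.66 (0.297) and did not pass under any alternative fit. Igkv12-46 was called at −5.38 ± 1.19 (0.0239) kept the call without GFP-positive library 2, which it led (0.00845), and lost it without GFP-positive library 3 (0.0643) or any 1 GFP-negative library (0.0667 to 0.0799). Iglv1 stood at −3.48 ± 0.97 (0.0504), just outside the threshold, at 0.0443 with no filter on low counts, and at −5.23 (0.00644) without GFP-positive library 2. The log2 fold change of Ighv11-2 was −0.72 ± 1.84 (0.850). Igkv4-81 was the sole tested member above 0, at 0.13 (0.978), with 51, 0 and 0 counts in GFP-positive and 1, 22 and 37 in GFP-negative libraries, and its sign turned without GFP-positive library 1 (−7.21).

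Other B cell genes moved with the segments. All 6 B cell markers were lower in GFP-positive libraries, with a summed 90.04, 47.8 and 78.8 CPM in GFP-positive libraries 1 to 3 and 8090 to 8638 CPM in GFP-negative libraries, and none was at 0 in any library. Of the 7 genes of the B cell receptor, 7 were lower. Cd79a, a signalling chain of the receptor, held 577, 151 and 367 counts in GFP-positive and 58847, 50830 and 61794 in GFP-negative libraries, and its partner Cd79b held 262, 113 and 222 against 25966, 26330 and 33750. Ms4a1, which encodes CD20, held 18, 204 and 328 counts against 29562, 31432 and 36845, so it was lowest in the GFP-positive library led by Ighv1-55 and Igkv14-126. The 3 mu and light chain constant regions measured, Ighm, Igkc and Iglc2, were all lower, with Ighm at 1127, 738 and 169 counts in GFP-positive and 105199, 84939 and 108959 in GFP-negative libraries.

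The genes of secretion and switching named here were in part chosen after their values were seen. None of the 6 switched constant regions passed the filter on low counts. Beside Ighg1, they were seen in GFP-negative libraries, with Igha at 0, 0 and 172 and Ighg3 at 0, 0 and 80 counts there and 0 in all GFP-positive libraries, and Ighg2b at 0 in all GFP-positive libraries and 182, 74 and 0 in GFP-negative libraries. Of 7 plasma cell genes tested 2 were lower, Mzb1 and Prdm1, and none was higher. Jchain, the joining chain that secreting cells add to IgM and IgA, held 66, 95 and 0 counts in GFP-positive and 35, 0 and 0 in GFP-negative libraries (log2 fold change 2.40 ± 2.54, SE; edgeR adjusted p = 0.601). The plasma cell markers had a summed 5.75 to 20.0 CPM in GFP-positive and 131 to 186 CPM in GFP-negative libraries, with Tnfrsf17 at 0 in every library. Most of the GFP-negative sum was Mzb1, at 147, 126 and 98.9 CPM in libraries 1 to 3. It was the 1 marker called lower of the 4 tested. Among genes of recombination and early B cell development, Vpreb3, a partner of the early heavy chain, passed the filter on low counts and was lower, with 3, 0 and 0 counts against 1297, 1484 and 1450. Of the factors that act on the octamer motif of variable promoters, Pou2af1, their B cell co-activator, was lower at 3, 3 and 95 against 4626, 8146 and 11452 counts, Pou2f2 did not pass (edgeR adjusted p = 0.117), and Pou2f1 was not tested.

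Markers of other cells differed between the same libraries, and their part in the segment shares was not tested. All 5 Kupffer cell markers were higher (10061 to 11033 summed CPM in GFP-positive, 546 to 720 in GFP-negative libraries), and 5 of 6 endothelial markers were higher (7620 to 8234 against 3166 to 3402). Of 6 T cell markers 1 was lower, Cd8a, with the list at 6.96 to 34.0 summed CPM in GFP-positive and 261 to 301 in GFP-negative libraries. T cell receptor variable segments, summed over 125 identifiers, stood at 5.99, 2.62 and 0.055 CPM in GFP-positive and 73.0, 48.3 and 64.5 CPM in GFP-negative libraries. The 3 erythroid markers did not pass, at 38.4 to 1003 against 5366 to 7454 summed CPM, with the highest GFP-positive value in library 1. Of 4 hepatocyte markers 2 were lower (868 to 1255 against 1702 to 1915).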

How the data were processed

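Poly-A RNA libraries were made from sorted CD31-positive mouse liver cells, per the labels' protocols. The values deposited by the authors are unnormalized read counts, 1 column a library in a single table. The tools HTSeq 0.6.1, TopHat2 2.0.12 and Bowtie2 2.2.3, and also edgeR, DESeq 1.18.0 and RSEM, stand in the submitters' processing notes with no role. Genome build, annotation, strand setting and the handling of reads shared by segments: not given in the sources used here. Symbols were matched for 34490 of 35275 identifiers through a table of Ensembl gene names, and germline sequences and positions came from GENCODE M21. Groups came from the label of sorted cells.

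Counts were tested in R 4.3.3 with edgeR 4.0.16 (filterByExpr with a minimum count of 10, TMM, robust quasi-likelihood fit, Benjamini-Hochberg over 12122 genes), with DESeq2 1.42.0 as an alternative. The fit was first tried on simulated data that varied less between libraries than these and had changes only in genes with many counts. That trial does not speak for segments with few counts. Standard errors come from the test statistic, and the common biological coefficient of variation was 0.816. A share of counts has a 95% Wilson interval. Fold bounds use 3 counts over a group and, like counting intervals, cover counting error only. The segments, lists and rules for naming genes were set with earlier results of these data known. Named were the segments with the most counts (all libraries, GFP-positive libraries), the leading segment of each GFP-positive library, the smallest p-values, every Iglv segment and those beside the minimum of 30 counts. No promoter of a variable segment was analysed here.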

Additional observations from a re-analysis of the deposited data

How the results depend on the processing

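The count of members called lower was 134 of 160 tested with edgeR, and the same with DESeq2 size factors or library totals alone. It was 92 of 176 with no filter on low counts and 151 of 170 with DESeq2's Wald test. It ran from 45 to 97 when a single library was left out, lowest without a GFP-negative library, and 0 were called higher in any of these fits. Over all genes, leaving out a library gave 994 to 1810 calls (496 to 1067 lower, 497 to 743 higher) against 2157 (1230 lower, 927 higher), and DESeq2 gave 3791 (2094 lower, 1697 higher). The log2 fold change of Igkv4-81 turned to −0.43 without GFP-negative library 1 and to −7.21 without GFP-positive library 1, and ran up to 0.73 without GFP-negative library 3. That is the single change of sign among the named segments.

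The effective numbers of segments depended on the index: with the exponential of Shannon entropy they were 4.93 in GFP-positive and 49.9 in GFP-negative libraries for the heavy chain, 8.13 and 53.2 for kappa, and 2.43 for lambda in GFP-negative libraries. For the heavy chain in GFP-positive libraries the value was 3.04 over members with 100 or more counts and 3.70 with counts divided by coding length, the last an alternative added after seeing the data. Without Iglv1, also added then, lambda made up 0.152% of GFP-positive and 2.86% of GFP-negative light chain counts, against 25.1% and 6.88% with it. Without GFP-positive library 2 the lambda log2 ratio was −5.98 in place of −4.23 and the GFP-positive lambda count per Iglc2 count 0.477 in place of 1.70, both within their wide spread between libraries. The GFP-positive group holds few variable counts (793 to 1073 a library), which limits every share given for it. No paired analysis was possible because the labels carry no shared replicate number.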
